A study of Sus scrofa with 18 samples.

Results

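The 8-cell parthenogenetic pig embryos grown from oocytes matured in FLI medium were compared with those from oocytes matured in DMEM. All 6 libraries labelled as 8-cell were taken, 3 pools for FLI and 3 pools for DMEM, out of 18 libraries in the series. The other 12 libraries hold 2-cell and 4-cell embryos of the same 2 media. Every embryo came from an oocyte of ovaries of premature gilts collected at a slaughterhouse, activated with ionomycin and 6-DMAP, and cultured in PZM-3.

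FLI medium was based on TCM 199 and carried FGF2, LIF, IGF1, EGF, pyruvate, glutamine, cysteine and albumin. The control medium was DMEM with EGF, IGF1 and FGF, and both held the gonadotropins PMSG and hCG. Base medium and supplements differ together, so their effects cannot be told apart. Parthenotes carry maternal genomes only, each library is a pool, and no label tells if pools of 1 group stem from different oocyte collections. Otherwise the p-values describe only how these particular pools vary.

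An early embryo runs at first on RNA that the growing oocyte stored. In the pig, the main wave of transcription from the embryo's own genome comes around the 4-cell stage, while stored maternal RNA is degraded. After this embryonic genome activation the blastomeres make their own ribosomes, splicing machinery and metabolic enzymes, and the first lineage genes follow. The comparison asks whether embryos of the 2 maturation media differed in their transcriptome at the 8-cell stage.

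Total counts in genes were 4028384, 5265886 and 2167674 in the FLI libraries, and 1737985, 4599171 and 2856304 in the DMEM libraries. Of the mapped reads, 52.0%, 63.1% and 21.4% were counted in genes in FLI, against 48.5%, 56.6% and 44.6% in DMEM, and 62.8% to 73.0% in the 12 younger libraries. FLI 3 stood apart: at least 1 count was found for 18595 genes there, against 14601 to 16561 in the other 5 libraries. It also held counts for 414 of the 1462 genes with no count in any 2-cell or 4-cell library, where the others held 69 to 128. Levels are CPM, counts scaled to a common library total, with TMM scaling, and log2 fold changes are FLI over DMEM. A gene without counts could still have had 0.57 to 1.38 CPM in FLI libraries or 0.652 to 1.73 CPM in DMEM libraries (3 counts before TMM scaling, counting error only). Totals, genes detected, share counted, mitochondrial share, likeness to 4-cell embryos and 2 sums of somatic markers were compared between the media by an exact permutation test, 2-sided. None of the 7 had p below 0.3 (adjusted p = 0.9 for each), where 3 libraries against 3 cannot reach below 0.1.

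Markers of the oocyte and of other cells were looked up in each library. Of 39 oocyte and maternal effect genes in the table, 35 to 38 had a count in each 8-cell library. Of all 20983 genes, 14601 to 18595 had one. Of 17 cumulus and granulosa markers, 10 to 15 had a count, with summed levels before TMM scaling of 128 to 278 CPM in FLI and 149 to 178 CPM in DMEM. Most of that sum was VCAN, a matrix proteoglycan, with 207 to 602 counts a library. FSHR, the receptor for follicle-stimulating hormone, had 1 to 7 counts a library, and CYP11A1, which starts steroid synthesis, had a single count, in DMEM 2, and 0 in the other 5. Other markers had counts in every library, with 15 to 88 for SERPINE2, 10 to 72 for GREM1 and 8 to 48 for STAR. In FLI 3, PTGS2 had 21, AMHR2 10 and INHA 9 counts, against 0 to 5, 0 to 2 and 0 to 1 in the other 5. FLI 3 was the highest in both marker sums (65.5 CPM for 18 blood and somatic markers, against 28.9 to 38.0 CPM in the other 5). Of the tested markers, the median log2 fold change over 9 blood and somatic genes was 0.87 (0.56 to 0.81 with 1 pool left out), the highest of the 29 gene lists, and that over 5 cumulus and granulosa genes was 0.45, where all genes had 0.05. The part of other cells in the results was not tested.

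No gene passed an adjusted p under 0.05 between FLI and DMEM 8-cell embryos. The test was the quasi-likelihood test of edgeR over 13187 genes, in 1 model of all 18 libraries. Without adjustment, p was under 0.05 for 452 genes (3.43%) above and 583 (4.42%) below DMEM, of which 200 (1.52%) and 33 (0.25%) were beyond 1.5 on the log2 scale, the thresholds of the study. In edgeR on the 6 8-cell libraries alone, p was under 0.05 for only 88 genes above and 89 below, of 11226 tested. The fit gave 0 genes as well between the media at the 4-cell stage (151 or 1.15% higher and 154 or 1.17% lower unadjusted) and at the 2-cell stage (179 or 1.36% higher and 105 or 0.796% lower unadjusted). DESeq2 on the same libraries called 1 higher (0.0288%) and 48 lower (1.38%) of the 3471 genes to which it gave an adjusted p at the 8-cell stage, and limma voom with sample weights called 1 and 16. For 742 genes (5.63%) every FLI library lay below every DMEM library, and for 429 (3.25%) every FLI library lay above. That split depended on the scaling. With totals alone, 417 genes lay below and 677 above, and the unadjusted counts were 247 lower and 811 higher, while the median of all genes moved to 0.16 from 0.05 on the log2 scale.

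The 10 genes below DMEM with the smallest p were mostly abundant. SPSB3, an adaptor of a cullin ubiquitin ligase (chromosome 3, 40185014 to 40190518, Sscrofa11.1), had 10.8, 9.06 and 10.3 CPM in FLI, against 47.5, 30.7 and 36.4 CPM in DMEM. The groups lay wide apart and the 3 FLI pools were close to each other. Its log2 fold change was -1.91 ± 0.32 (SE, n = 3 each; edgeR adjusted p = 0.12). Each SE here comes from the fit of all 18 libraries, with 1 estimate of spread per gene for all stages. The 8-cell pools varied more than the younger ones (median SD 0.60 and 0.44, against 0.19 to 0.32). So such an SE can be too small for them. It passed in 2 alternatives, edgeR without a filter on low counts and DESeq2 on the 6 libraries alone. DESeq2 on all 18 libraries gave it no adjusted p.

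DDX23, an RNA helicase of the spliceosome, had 141, 107 and 130 CPM in FLI, against 222, 274 and 250 CPM in DMEM. Every FLI pool was below every DMEM pool (log2 fold change -0.98 ± 0.19, SE, edgeR adjusted p = 0.19; DESeq2 adjusted p = 0.0011). CACTIN, a splicing cofactor, had 92.8, 88.8 and 83.3 CPM in FLI, against 154, 161 and 175 CPM in DMEM (-0.89 ± 0.18, edgeR adjusted p = 0.19; DESeq2 adjusted p = 0.0005). RDH10, which makes the first step from retinol to retinoic acid, had 61.4, 60.5 and 54.2 CPM in FLI, against 115, 106 and 102 CPM in DMEM (-0.87 ± 0.17, edgeR adjusted p = 0.19; DESeq2 adjusted p = 9.7e-05). In each of the 3 genes the FLI and DMEM pools did not overlap, and for CACTIN and RDH10 the 3 FLI pools lay within 10 CPM of each other.

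HHIP, a cell surface inhibitor of hedgehog ligands, had 43.5, 70.1 and 37.2 CPM in FLI, against 146, 127 and 118 CPM in DMEM (-1.37 ± 0.31, edgeR adjusted p = 0.36; DESeq2 adjusted p = 0.0043). DKC1, the pseudouridine synthase of H/ACA ribonucleoproteins, had 405, 318 and 307 CPM in FLI, against 479, 627 and 600 CPM in DMEM (-0.73 ± 0.17, edgeR adjusted p = 0.36; DESeq2 adjusted p = 0.0028). POLE3, a histone-fold subunit of DNA polymerase epsilon, had 224, 215 and 187 CPM in FLI, against 345, 354 and 349 CPM in DMEM (-0.74 ± 0.17, edgeR adjusted p = 0.36; DESeq2 adjusted p = 0.0011). ZNF8, a zinc finger gene, and RPS7, of the small ribosomal subunit, complete the 10, with log2 fold changes of -1.28 ± 0.30 and -1.14 ± 0.26. All 10 had groups that did not overlap, against 5.63% of all genes, which the choice by p in these same pools made likely. In the 4-cell comparison, which used other libraries, all 10 were also below 0, against 51.4% of all genes.

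**Figure D1:**
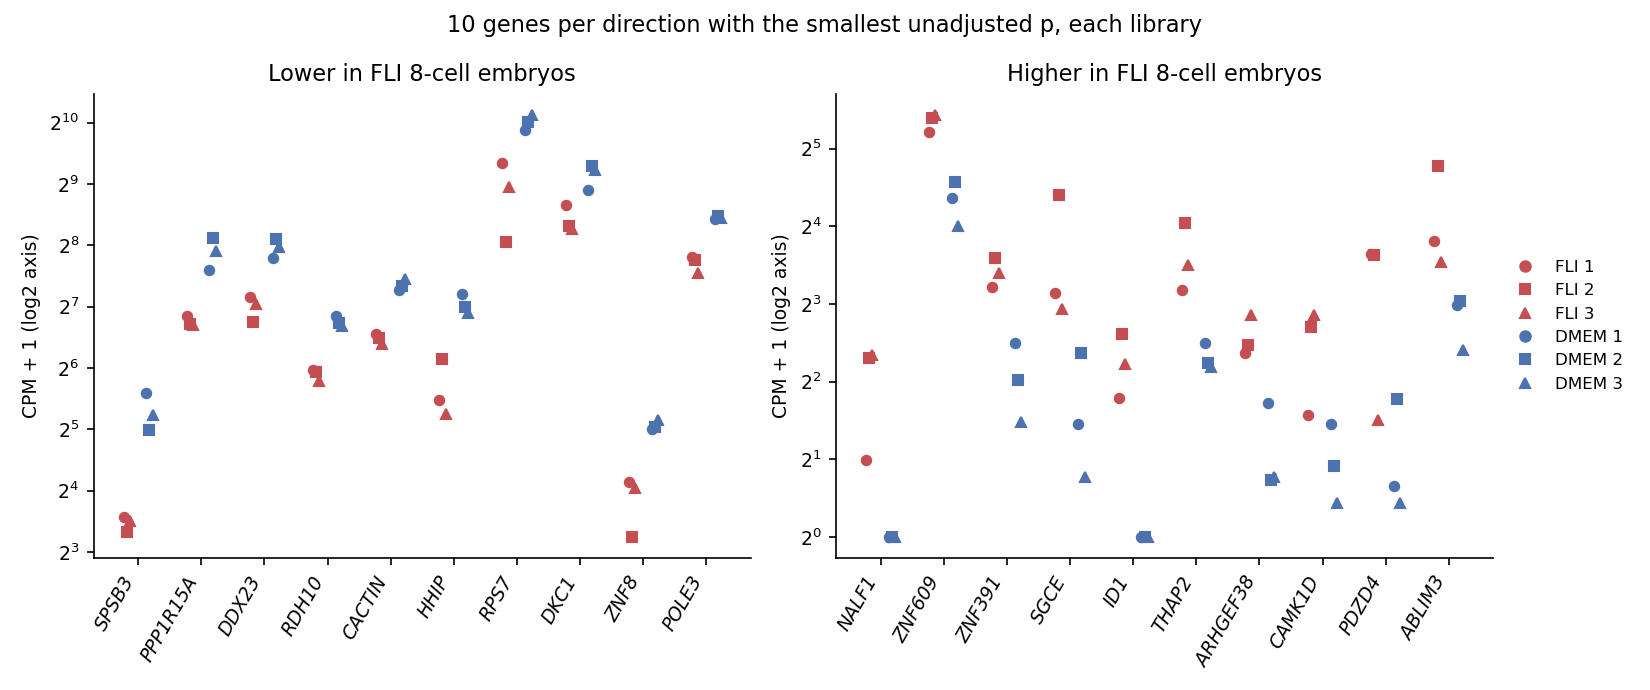
CPM + 1 on a log2 axis for the 10 genes per direction with the smallest unadjusted p, with FLI pools in red left of DMEM pools in blue. All 10 lower genes and 9 of the 10 higher genes show no overlap, PDZD4 being the exception, and the higher genes sit at lower levels. They were picked by p in these same pools, and of all genes 5.63% lay apart below and 3.25% above.

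The genes with the smallest p that were higher in FLI had low levels. ZNF609, a zinc finger gene, had 36.1, 41.0 and 42.4 CPM in FLI, against 19.7, 22.8 and 15 CPM in DMEM (1.05 ± 0.23, SE, n = 3 each, edgeR adjusted p = 0.36). ZNF391 had 8.35, 11.03 and 9.58 CPM in FLI, against 4.63, 3.07 and 1.79 CPM in DMEM (1.65 ± 0.37). SGCE encodes epsilon-sarcoglycan and is expressed from the paternal allele in human and mouse. It had 7.86, 20.1 and 6.63 CPM in FLI, against 1.74, 4.16 and 0.714 CPM in DMEM (2.27 ± 0.53, edgeR adjusted p = 0.36). The groups did not overlap, and FLI 2 was the highest.

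Of these 10 genes, 2 had no count in any DMEM pool. ID1, an inhibitor of basic helix-loop-helix factors and a target of BMP signals, had 2.46, 5.12 and 3.69 CPM in FLI (46 counts in all, edgeR adjusted p = 0.40). By counts alone this was at least 11.7-fold higher, with the counts of each medium summed on the TMM scale and 3 counts set as the floor over the DMEM pools. NALF1, a partner of the sodium leak channel, had 0.982, 3.94 and 4.05 CPM in FLI (35 counts, edgeR adjusted p = 0.19), at least 8.94-fold higher. Both bounds take the FLI counts as exact and leave out the spread between pools. Without DMEM 2, the largest DMEM library, the bounds were 5.85 and 4.45. For the others, THAP2, ARHGEF38, CAMK1D, PDZD4 and ABLIM3, log2 fold changes ran from 1.45 to 2.67. In the 4-cell comparison 6 of the 10 were above 0, against 48.5% of all genes.

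The 583 lower genes had a median of 81.7 CPM and a median log2 fold change of -0.64, and the 452 higher genes had 7.55 CPM and 1.37, where all tested genes had a median of 19.1 CPM. Of the lower genes, 77.9% were also below 0 in the 4-cell comparison, against 51.4% of all genes. Of the higher genes, 62.4% were above 0 there, against 48.5% of all. At the 2-cell stage the medians were 0.011 for the lower genes and -0.0022 for the higher genes.

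The difference between the media changed from the 2-cell to the 8-cell stage for PPP1R15A. It encodes GADD34, which guides a phosphatase to the initiation factor eIF2 and so restores translation after stress (chromosome 6, 54172050 to 54175463, Sscrofa11.1). In 8-cell embryos it had 114, 104 and 103 CPM in FLI, against 192, 277 and 239 CPM in DMEM (-1.14 ± 0.20, SE, edgeR adjusted p = 0.15; DESeq2 adjusted p = 0.00023). In 2-cell embryos it had 14.6, 11.6 and 9.08 CPM in FLI, against 5.63, 5.76 and 5.85 CPM in DMEM, so FLI was above DMEM there. In 4-cell embryos it had 218, 212 and 225 CPM in FLI, against 350, 289 and 223 CPM in DMEM, where the groups overlapped. The difference between the 8-cell and the 2-cell response was -2.16 ± 0.31 on the log2 scale (SE, edgeR adjusted p = 0.018).

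**Figure D2:**
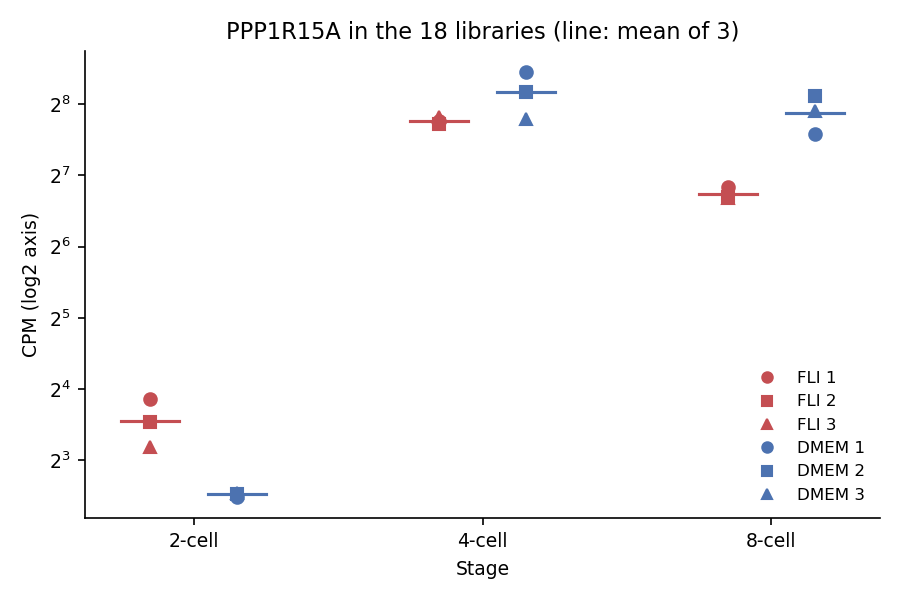
PPP1R15A in CPM on a log2 axis at the 3 stages, FLI in red and DMEM in blue, with points for pools and lines for means of 3. FLI lies above DMEM at the 2-cell stage and below it at the 8-cell stage, and at the 4-cell stage FLI 3 is just above DMEM 3 (225 against 223 CPM).

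This test of the response between stages passed for 2 of 13187 genes (0.0152%), both lower at the 8-cell stage. The other, ENSSSCG00000014569 on chromosome 9, carries no symbol in the table and had 307, 148 and 219 CPM in FLI, against 466, 400 and 403 CPM in DMEM. Against the 4-cell response no gene passed in edgeR or DESeq2, and 252 genes (1.91%) were higher and 153 (1.16%) lower without adjustment, of which 181 (1.37%) and 54 (0.409%) were beyond 1.5 on the log2 scale. Against the 2-cell response these were 259 (1.96%) and 410 (3.11%), of which 184 (1.4%) and 130 (0.986%) were beyond 1.5. Both calls against the 2-cell stage were lost with limma voom, with upper quartile scaling, with a replicate block, and without DMEM 2 or DMEM 3.

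Of the 29 gene lists, that of the cytosolic ribosomal proteins had the lowest median. All 65 tested genes were below 0 in FLI, with a median log2 fold change of -0.63, where all genes had 0.05. At an unadjusted p under 0.05, 33 of 65 were lower and 0 higher, and for 24 (36.9%, against 5.63% of all genes) the pools did not overlap. Per pool, the median of log2(CPM + 1) against the DMEM mean was -0.15, -1.45 and -0.53 in FLI, and -0.27, 0.14 and 0.14 in DMEM. FLI 2 was thus far below all others, and FLI 1 lay above DMEM 1. Without FLI 2 the median was -0.36, and without FLI 1 it was -0.97.

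RPS7 had 645, 264 and 495 CPM in FLI, against 945, 1026 and 1121 CPM in DMEM. RPS18 had 461, 256 and 385 CPM in FLI, against 519, 712 and 735 CPM in DMEM (-0.84 ± 0.21, SE, edgeR adjusted p = 0.40). RPL7A, of the large subunit, had 878, 424 and 603 CPM in FLI, against 996, 1140 and 1151 CPM in DMEM (-0.79 ± 0.23, edgeR adjusted p = 0.45). In all 3 the groups did not overlap and FLI 2 was the lowest. RPL15 and RPLP0 had -0.70 ± 0.20 and -0.62 ± 0.22 with groups apart, and RPSA had -0.42 ± 0.20 with groups that overlapped. Ribosomal protein genes have many near-identical pseudogene copies, so reads may have been split between copies and single values are uncertain.

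The list lay in the same direction at the 4-cell stage and in the opposite direction at the 2-cell stage. At the 4-cell stage 2 of the 65 genes were above 0 (median -0.32), and at the 2-cell stage 62 were above 0 (median 0.48). The median difference of the response was -1.09 against the 2-cell stage and -0.31 against the 4-cell stage. For single genes this difference did not pass the test (RPS7, -1.98 against the 2-cell stage, edgeR adjusted p = 0.29).

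**Figure D3:**
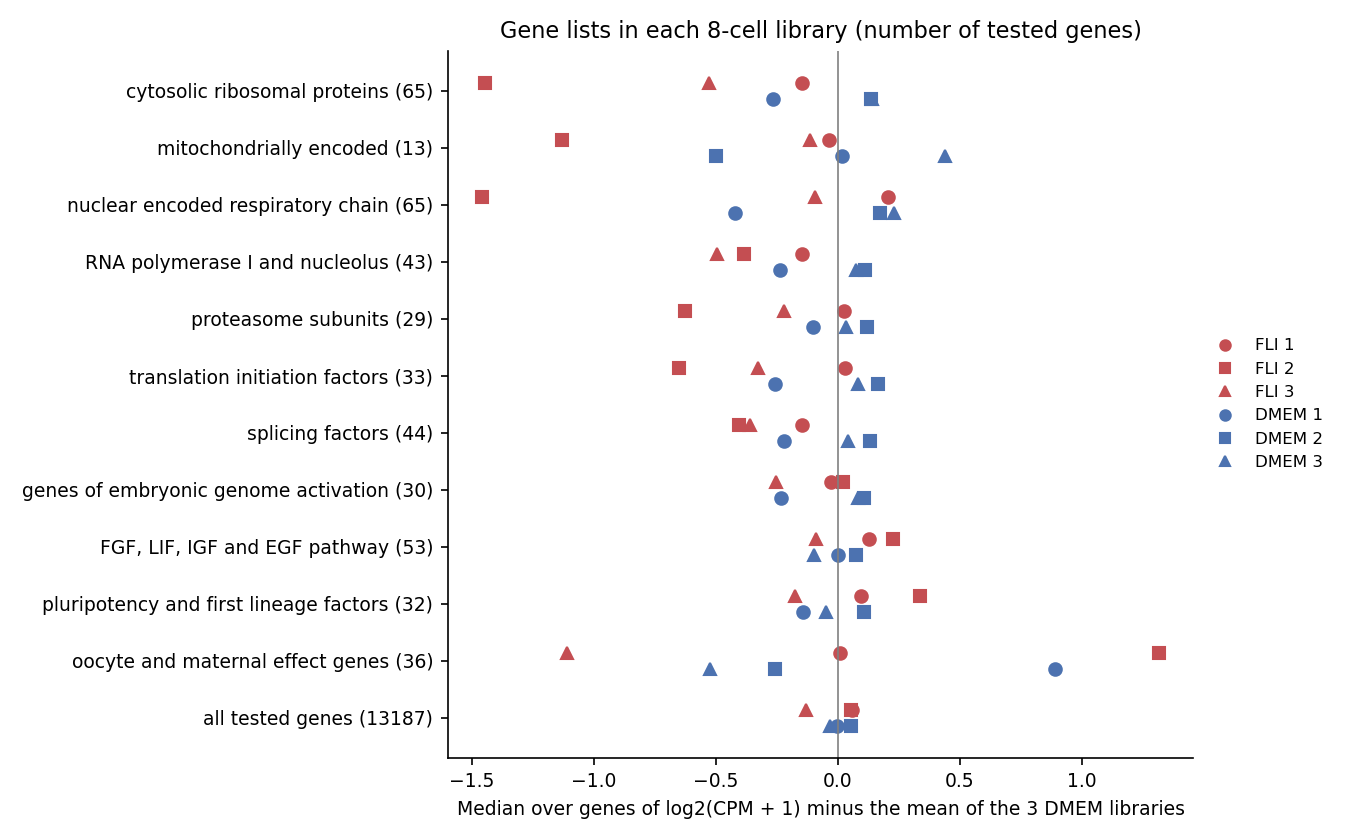
Median over the genes of a list of log2(CPM + 1) minus the mean of the DMEM pools, for 11 lists and all tested genes, with FLI pools in red above DMEM pools in blue. The ribosomal list spans -1.45 to -0.15 in FLI and -0.27 to 0.14 in DMEM, and for oocyte genes FLI 2 and FLI 3 lie at opposite ends (1.32 and -1.11).

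Genes that build ribosomes, splice RNA and degrade proteins lay in the same direction. Of 43 nucleolar and RNA polymerase I genes, 36 were below 0 (median -0.32), 13 were lower at an unadjusted p under 0.05 (4.42% of all genes) and 9 (20.9%, against 5.63% of all genes) did not overlap. Of 44 splicing factors, 35 were below 0 (median -0.27), 15 were lower at an unadjusted p under 0.05 and 13 (29.5%) did not overlap, with the same shares of all genes. Of 29 proteasome subunits, 24 were below 0 (median -0.31), with 7 lower and 6 (20.7%) apart, and without FLI 2 the median was -0.12, near the -0.09 of all genes. With totals alone in place of TMM scaling the 3 medians were -0.19, -0.15 and -0.20, below the 0.16 of all genes, and 9, 7 and 2 genes were apart, where the share of all genes was 3.16%.

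EBNA1BP2, a factor of large subunit assembly, had 260, 260 and 206 CPM in FLI, against 346, 373 and 350 CPM in DMEM (-0.56 ± 0.17, SE, edgeR adjusted p = 0.46; DESeq2 adjusted p = 0.010). SNU13, shared by box C/D snoRNPs and the U4 snRNP, had 156, 156 and 142 CPM in FLI, against 219, 206 and 216 CPM in DMEM (-0.50 ± 0.17). In both genes the gap between the groups was wider than the range within either. The nucleolar proteins NCL and NPM1 had -0.39 ± 0.20 and -0.38 ± 0.17, with groups that overlapped. The subunit POLR1A, the largest of RNA polymerase I, had 194, 215 and 159 CPM in FLI, against 176, 254 and 268 CPM in DMEM, and UBTF, its activator, had 174, 215 and 140 CPM against 156, 228 and 204 CPM. For neither did the groups separate.

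PRPF6, a bridge of the splicing tri-snRNP, had 316, 223 and 236 CPM in FLI, against 427, 424 and 396 CPM in DMEM (-0.68 ± 0.17, SE, edgeR adjusted p = 0.40; DESeq2 adjusted p = 0.012). SNRPC of the U1 snRNP, SNRPD1 of the Sm core and SRSF10 had -0.60 ± 0.18, -0.56 ± 0.17 and -0.52 ± 0.16, with groups apart. SRSF3 had 192, 213 and 157 CPM in FLI, against 151, 200 and 205 CPM in DMEM, so not all factors lay low. PSMB3, of the catalytic ring of the proteasome, had 34.9, 25.8 and 49.4 CPM in FLI, against 70.1, 59.2 and 70.7 CPM in DMEM (-0.87 ± 0.24). PSMA7, PSMD13 and PSMD8 had -0.49 ± 0.19, -0.52 ± 0.20 and -0.36 ± 0.15, again with groups apart.

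Of the 48 lower genes called by DESeq2, 9 were in 4 of the 29 lists, and the other lists held none. They were 4 splicing factors (PRPF6, SNRPD1, SRSF10 and SRSF2), 2 ribosomal proteins (RPS7 and RPS18), 2 nucleolar genes (DKC1 and EBNA1BP2) and SUPT4H1 of the transcription machinery. Of the 154 genes with an adjusted p in these 4 lists, 5.84% were called lower, against 1.38% of all genes. The 4 lists were picked because they held calls, so a higher share was fixed beforehand. For 43 of the 48 the groups did not overlap. Their edgeR adjusted p ran from 0.15 to 0.66 over the 49 calls, and 11 of the 49 were also called by limma voom with sample weights.

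Respiratory chain genes differed between pools more than between media. Of 65 nuclear genes 55 were below 0 (median -0.35), yet the median per pool was 0.21, -1.46 and -0.09 in FLI, and -0.42, 0.17 and 0.23 in DMEM. FLI 2 was far below the rest, and without it the median was 0.01, where all genes had -0.09. COX6C, of complex IV, had 369, 201 and 361 CPM in FLI, against 422, 541 and 544 CPM in DMEM (-0.70 ± 0.24, SE), and COX7A2 had 51.1, 40.0 and 50.9 CPM in FLI, against 70.6, 73.4 and 78.2 CPM in DMEM (-0.65 ± 0.28). Both had groups apart, as had 7 (10.8%, against 5.63% of all genes) of the 65, and with totals alone 2 had, where the share of all genes was 3.16%. Of the 13 genes of the mitochondrial genome 12 were below 0 (median -0.38), with no gene apart. That median was -0.14 without FLI 2 or without DMEM 3, and -0.66 without FLI 1. CYTB, of complex III, had 10521, 4868 and 10766 CPM in FLI, against 14568, 8844 and 16932 CPM in DMEM.

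Among the genes in the table, most of those with the highest levels per length were mitochondrial in both groups. Mitochondrial transcripts made up 28.5%, 15.4% and 32.5% of the authors' TPM in FLI, and 28.9%, 21.7% and 35.3% in DMEM. Of the 10 genes with the highest mean TPM, 9 were mitochondrial in each group, COX2 being first with 54306, 27959 and 57191 TPM in FLI, and 41172, 41729 and 59692 TPM in DMEM. The other was ENSSSCG00000034113 on chromosome 9, which carries no symbol, with 16956 ± 416 TPM in FLI and 20525 ± 2630 TPM in DMEM (SD, n = 3 each). FLI 2 was the lowest for COX2, and the DMEM pools lay within the FLI range or just above it.

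The pools of a group were unlike each other, and more so in FLI. The median SD of log2(CPM + 1) over genes was 0.60 in 8-cell FLI and 0.44 in 8-cell DMEM, against 0.29 and 0.32 at the 4-cell stage and 0.20 and 0.19 at the 2-cell stage. It exceeded 1 for 2846 genes (21.6%) in FLI and for 1453 (11.02%) in DMEM. Without FLI 2 the FLI median was 0.34, and without DMEM 1 the DMEM median was 0.23. Across genes, Pearson's correlation between pools was 0.815 to 0.933 within FLI, 0.900 to 0.963 within DMEM and 0.852 to 0.966 between the media. The most alike pair was FLI 1 with DMEM 2, and the least alike was FLI 2 with FLI 3.

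The pools were placed by genes chosen in the younger libraries only. Those more than 4-fold higher at the 4-cell than at the 2-cell stage in both media, at an edgeR adjusted p under 0.05, numbered 2510. Their median log2 difference from the 4-cell mean was -0.24, -0.82 and -0.28 in FLI, and -0.43, -0.04 and -0.07 in DMEM. The 1038 genes more than 4-fold lower at the 4-cell stage had 0.32, 1.18 and -0.21 in FLI, and 0.85, 0.00019 and -0.30 in DMEM. FLI 2 and DMEM 1 were thus the highest for the genes lower at the 4-cell stage and the lowest for those higher at the 4-cell stage. Their correlation with the mean 2-cell profile was 0.837 for FLI 2 and 0.767 for DMEM 1, against 0.598 to 0.715 for the others.

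**Figure D4:**
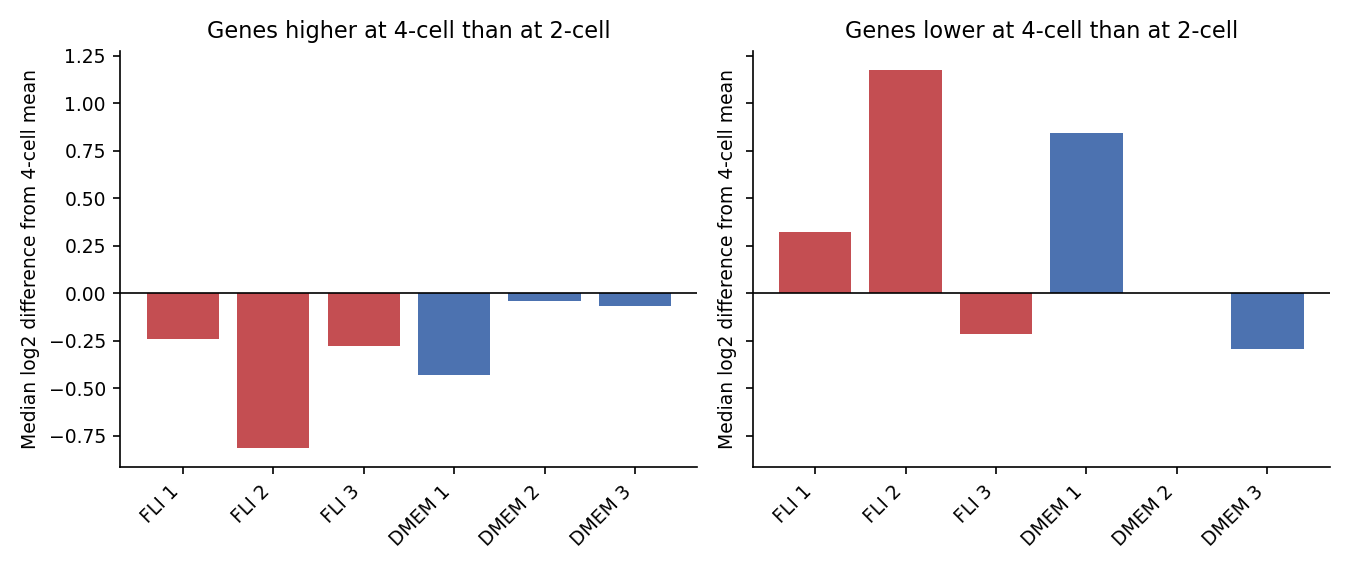
Median log2 difference of each 8-cell pool from the mean of the 4-cell libraries, for the 2510 genes higher and the 1038 genes lower at the 4-cell than at the 2-cell stage, FLI in red and DMEM in blue. FLI 2 (-0.82 and 1.18) and DMEM 1 (-0.43 and 0.85) have the longest bars, and DMEM 2 is near 0 in both.

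Between the media, 1798 of the 2510 genes higher at the 4-cell stage were below 0 in FLI (median -0.25), and for 348 (13.9%) the groups did not overlap, against 5.63% of all genes. Of the 1038 genes lower at the 4-cell stage 841 were above 0 (median 0.39), with 49 (4.72%) apart, against 3.25% of all genes. Without FLI 2 the median of the 2510 was -0.16 and that of the 1038 was -0.21, the opposite direction.

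Oocyte genes were also highest in FLI 2 and next highest in DMEM 1. Of 36 tested oocyte and maternal effect genes 30 were above 0 in FLI (median 0.30), but the median per pool was 0.01, 1.32 and -1.11 in FLI, and 0.89, -0.26 and -0.52 in DMEM. BMP15, a growth factor secreted by the oocyte, had 1040, 2785 and 149 CPM in FLI, against 1642, 546 and 399 CPM in DMEM. BTG4, which drives the decay of maternal RNA, had 80.0, 358 and 28.0 CPM in FLI, against 291, 69.0 and 53.2 CPM in DMEM. FLI 2 and DMEM 1 were high and FLI 3 low for both, and the groups overlapped. In such pools fewer embryos or cells with a transcript and less of it per cell cannot be told apart.

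PADI6, of the subcortical maternal complex, had 73.4, 369 and 33.9 CPM in FLI, against 132, 59.6 and 48.2 CPM in DMEM, and ZP4, of the zona pellucida, had 83.5, 374 and 40.5 CPM in FLI, against 115, 53.3 and 65.7 CPM in DMEM. Only KIT, the receptor tyrosine kinase of the oocyte, had FLI pools all above DMEM pools among the 36 (2.78%, against 3.25% of all genes). It had 39.3, 63.4 and 46.1 CPM in FLI, against 34.7, 31.6 and 38.6 CPM in DMEM (0.51 ± 0.23, SE), and 0.25 on the log2 scale without FLI 2. TRIM28, a corepressor that guards imprints, was the one gene of the list lower at an unadjusted p under 0.05 (-0.55 ± 0.22), and its groups overlapped. Without FLI 2 the median of the list was -0.54.

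**Figure D5:**
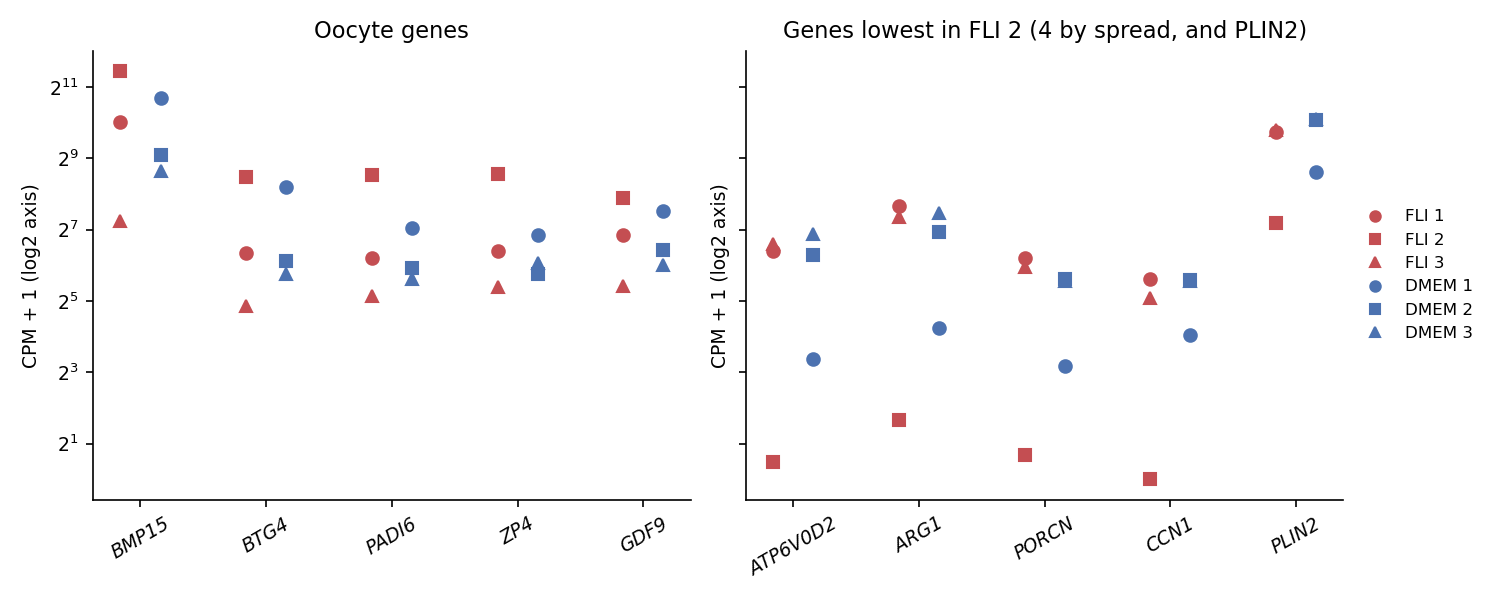
CPM + 1 on a log2 axis for 5 oocyte genes and for 5 genes lowest in FLI 2, with FLI pools in red left of DMEM pools in blue. BMP15 runs from 149 to 2785 CPM within FLI alone, and ARG1 from 2.17 to 203 CPM.

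Of the 10 genes with the widest spread within a group, 5 per medium, 7 were lowest in FLI 2 and DMEM 1. ARG1, the arginase of the urea cycle, had 203, 2.17 and 164 CPM in FLI, against 17.9, 121 and 177 CPM in DMEM. ATP6V0D2, of the vacuolar proton pump, had 83.2, 0.394 and 96.6 CPM in FLI, against 9.26, 76.5 and 116 CPM in DMEM. PORCN, which lipidates Wnt ligands, had 72.7, 0.591 and 61.2 CPM in FLI, against 8.11, 48.0 and 46.1 CPM in DMEM. All 3 were lowest in FLI 2 and next lowest in DMEM 1.

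CCN1, a matricellular protein, and FOLH1, a carboxypeptidase, were also lowest in FLI 2 and DMEM 1. CITED2, a transcriptional coregulator, had 31.9, 0.197 and 15.1 CPM in FLI, against 0, 13.4 and 18.9 CPM in DMEM. The other 3 were IRX1, DIRAS2 and H2AC19. IRX1, a homeobox gene, had 16.7, 26.0 and 4.42 CPM in FLI, against 29.5, 10.3 and 0.714 CPM in DMEM, and DIRAS2, a small GTPase, had 22.1, 83.1 and 11.8 CPM in FLI, against 63.1, 18.4 and 2.86 CPM in DMEM, so both were highest in FLI 2 and DMEM 1, as the oocyte genes were. H2AC19, a histone H2A gene, differed from all of these, with 0, 64.8 and 13.6 CPM in FLI, against 24.3, 28.7 and 42.5 CPM in DMEM. PLIN2, which coats lipid droplets, had 851, 146 and 881 CPM in FLI, against 388, 1070 and 1091 CPM in DMEM.

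The pathways of the factors added to the medium were followed as a list of 53 tested genes of FGF, LIF, IGF and EGF signalling. By the paper's doses, FLI held more FGF2 than DMEM but less IGF1, and only FLI held LIF. EGF was in both media, with doses given in different units. Of these 35 were above 0 in FLI (median 0.18), 3 were higher and 1 lower at an unadjusted p under 0.05, and 2 (3.77%, against 3.25% of all genes) did not overlap. Without FLI 2 the median was -0.05, where all genes had -0.09. IGF1R, the receptor of IGF1, had 54.3, 86.7 and 32.1 CPM in FLI, against 37.1, 28.1 and 26.8 CPM in DMEM (0.93 ± 0.30, SE, edgeR adjusted p = 0.46). FLI 3 lay within the DMEM range.

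FGF2 itself had 8.35, 14.4 and 9.95 CPM in FLI, against 7.53, 5.70 and 4.9996 CPM in DMEM (0.87 ± 0.35, SE). SPRY2, a feedback inhibitor of FGF signals, had 18.4, 14.97 and 19.2 CPM in FLI, against 5.21, 13.4 and 11.4 CPM in DMEM (0.75 ± 0.31). These were the pair with groups apart. LIFR, the LIF receptor, had 26.5, 71.9 and 19.5 CPM in FLI, against 34.7, 20.8 and 21.1 CPM in DMEM, and the feedback inhibitor SPRY4 had 178, 55.3 and 152 CPM in FLI, against 149, 170 and 178 CPM in DMEM. PIK3R1, the regulatory subunit of PI3 kinase, had -0.48 ± 0.21.

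Of 32 pluripotency and first lineage genes, 22 were above 0 (median 0.21), and 3 (against 3.43% of all genes) were higher at an unadjusted p under 0.05. Without FLI 2 the median was 0.06, where all genes had -0.09. GATA3, a trophectoderm factor in the mouse, had 6.14, 4.73 and 8.11 CPM in FLI, against 0.579, 1.53 and 1.43 CPM in DMEM, so all FLI pools were above (2.31 ± 0.93, SE, edgeR adjusted p = 0.55). Its levels were near the floor in DMEM. SOX2 had 42.2, 22.8 and 47.9 CPM in FLI, against 30.7, 51.3 and 37.9 CPM in DMEM, and NANOG had 19.1, 56.1 and 25.4 CPM in FLI, against 17.9, 21.5 and 30 CPM in DMEM. For both the groups overlapped.

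The medians of the glycolysis, lipid and stress lists lay between -0.08 and -0.02, where all genes had 0.05. With totals alone they lay between 0.04 and 0.12, where all genes had 0.16, so the 3 lists were below all genes in both scalings. SLC2A1, the glucose transporter GLUT1, had 14.2, 25.4 and 10.3 CPM in FLI, against 2.32, 10.96 and 8.21 CPM in DMEM (1.15 ± 0.41, SE). MDH1, the cytosolic malate dehydrogenase, had 11.8, 7.88 and 8.85 CPM in FLI, against 20.8, 15.8 and 20.4 CPM in DMEM (-0.99 ± 0.35), and its groups lay apart. HSF2, a heat shock factor, had 11.3, 6.50 and 14.7 CPM in FLI, against 28.4, 19.5 and 22.9 CPM in DMEM (-1.13 ± 0.32). PRDX5, a peroxidase, had 17.2, 10.8 and 17.3 CPM in FLI, against 23.2, 28.9 and 47.5 CPM in DMEM (-1.15 ± 0.41).

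Of 39 heat shock and stress genes 7 (17.9%) had FLI pools all below DMEM pools, against 5.63% of all genes, with HSF2 and PRDX5 among them, and 0 had FLI pools all above. With totals alone there were 3 such genes. The other lists, among them 54 histone and chromatin enzymes, 45 cell cycle genes and 276 C2H2 zinc finger genes, had medians of 0.00, 0.01 and 0.10. In the Wnt list FZD5, a Wnt receptor, had 8.84, 26.6 and 8.85 CPM in FLI, against 6.37, 7.23 and 3.21 CPM in DMEM (1.40 ± 0.41, SE), with groups apart.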

How the data were processed

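RNA of pooled embryos was made into stranded total RNA libraries (SMARTer Pico) and sequenced on a NovaSeq. The authors mapped reads with bowtie2 and took expression values from Illumina Dragen. The submitters' processing notes name Sscrofa11.1 and DESeq2, and no version of these tools was stated. The authors deposited total counts per gene, used for all tests and levels, RPKM, used only to infer mapped reads, and TPM, used for highest levels. The 18 deposited columns of CPM were not used. Of 20983 genes, 15498 had a symbol and 193 more were named from the reference table.

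Counts were fitted in R 4.3.3 with edgeR 4.0.16 (filterByExpr, TMM, glmQLFit, glmQLFTest) on 18 libraries with 6 group means, and p-values were adjusted by Benjamini-Hochberg over 13187 genes. Medians of lists are of fitted log2 fold changes, and levels per pool used log2(CPM + 1). DESeq2 1.42.0 and limma 3.58.1 were alternatives, with other scalings, filters, libraries left out and a replicate block. The fits were tested on simulated data. Samples were grouped by labelled stage and medium, and no 2 libraries agreed within sampling noise. Genes were named by rule: 10 per direction by p, up to 4 per list by p, chosen key genes of each list, the 5 per group with the widest spread above 10 CPM, and the 10 highest by TPM. The gene lists and comparisons were chosen with earlier results of these data known.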

Additional observations from a re-analysis of the deposited data

Results flagged for a closer look

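The response to FLI medium differed between the 8-cell and the 2-cell stage for 2 genes. PPP1R15A had a difference of responses of -2.16 ± 0.31 (SE) on the log2 scale, from -1.14 at the 8-cell stage against 1.02 at the 2-cell stage (edgeR adjusted p = 0.018). FLI pools were below all DMEM pools at the 8-cell stage and above all DMEM pools at the 2-cell stage, in 3 of 3 pools each time. ENSSSCG00000014569 had a difference of -2.29 ± 0.36, from -0.91 at the 8-cell stage against 1.38 at the 2-cell stage (edgeR adjusted p = 0.038). Its 2-cell levels were low, with 11.5, 9.41 and 9.08 CPM in FLI and 4.33, 3.07 and 3.99 CPM in DMEM.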

How the results depend on the processing

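The number of genes between FLI and DMEM at the 8-cell stage stayed at 0 under each replicate left out (0 to 0), other scalings, a robust fit, limma voom, no mitochondrial genes and the 6 libraries alone. It was 49 with DESeq2, 17 with sample weights, 2 without a filter on low counts, 1 with DESeq2 on the 6 libraries, 2 without DMEM 1, FLI 2 and FLI 3, and 233 at the thresholds of the study (log2 fold change beyond 1.5 and an unadjusted p under 0.05). The test against the 4-cell response gave 0 genes, 4 without those 3 libraries and 235 at the study's thresholds. Against the 2-cell response the 2 genes became 1 with DESeq2 size factors, totals alone or no mitochondrial genes, 0 with voom or upper quartile scaling, 9 with DESeq2, 6 with sample weights, 314 at the study's thresholds, and 0 to 4 with a replicate left out. Why the tools differ was not tested. At an unadjusted p under 0.05, leaving out 1 library gave 385 to 1668 higher and 330 to 990 lower genes, with 1668 higher and 609 lower without FLI 3, and 395 higher and 990 lower without FLI 2. The log2 fold changes of 59 named genes kept their sign and stayed short of an adjusted p under 0.05 in all 588 edgeR values under other scaling, the 6 libraries alone, a block or a replicate left out. These 59 were mostly named for a small p in these same libraries, so a kept sign was likely beforehand. Named genes with overlapping groups such as BMP15, BTG4, LIFR and NANOG were not among the 59. The size of the fold change was less stable, as leaving out 1 library moved it by more than 1.5 times for 19 of the 59. FZD5 had 0.60, IGF1R 0.50, SLC2A1 0.65 and KIT 0.25 without FLI 2, and TSSC4 had -0.54 without DMEM 1. Medians of lists, sets of stage genes and spreads without single pools were added after seeing the data. No label tells whether pools with the same number belong together. Deviations of same-numbered 8-cell pools from their group means correlated at -0.27, -0.24 and 0.44. The values were 0.13, 0.03 and 0.25 at the 4-cell stage and 0.02, -0.01 and 0.02 at the 2-cell stage. So few pairs cannot settle whether the pools were paired. With a replicate block 0 genes passed at the 8-cell stage and 0 against the 2-cell response, with 354 higher and 514 lower genes unadjusted. Where a fit left 1 pool in a group, it was assumed to vary like the others. Depth limits genes under about 1.73 CPM, where 3 counts in the smallest library are not told from 0.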

Other observations

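Some lists not described above held single genes with groups apart. Of 10 tested paternally expressed imprinted genes, 2 (against 3.25% of all genes) had FLI pools all above DMEM pools, SGCE and RTL1 (2.70, 2.56 and 4.42 CPM in FLI, against 1.16, 1.10 and 1.43 CPM in DMEM). RTL1 was near the floor in DMEM, with 2, 5 and 4 counts (edgeR unadjusted p = 0.15, adjusted p = 0.72). The median of the list was 0.52, and -0.18 without FLI 2, where all genes had -0.09. PEG10 had 27.0, 130 and 13.6 CPM in FLI, against 53.8, 19.1 and 16.1 CPM in DMEM. Among maternally expressed genes TSSC4, a splicing factor imprinted in the mouse, had 10.8, 12.2 and 9.22 CPM in FLI, against 35.3, 18.2 and 12.9 CPM in DMEM (-1.003 ± 0.38, SE).

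Keratins of the first epithelium were spread widely. KRT18 had 29.7, 5.32 and 67.8 CPM in FLI, against 64.8, 71.7 and 107 CPM in DMEM, and KRT8 had 7.86, 0.394 and 24.7 CPM in FLI, against 14.5, 22.8 and 9.64 CPM in DMEM. FLI 2 was the lowest for both. Cadherin CDH1 had 819, 1009 and 615 CPM in FLI, against 822, 980 and 805 CPM in DMEM.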
